A study of Homo sapiens with 101 samples.

Results

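EIF4E2 and 7 further genes, of cap-binding translation factors and of proteins that work with them, were followed across 9 treatments of 2 colorectal cancer cell lines, SW480 and SW620. The 8 genes were EIF4E2, EIF4E, EIF4E3, EIF4EBP1, EIF4EBP2, EIF4G1, EIF4G3 and EIF4A2, and they were selected by gene symbol, after EIF4E2 had been seen to be higher in all 6 knockdowns of the study in both lines. Of 54675 probe sets on the arrays, 22 named 1 of these genes alone, and they covered 7 of the 8 genes among 19775 genes in all. EIF4G3 was not analysed here, because no probe set naming it alone was among those used. A gene was represented by its probe set of highest mean level, and the others are reported beside it. Levels are log2 values, so that a difference of 1 is a doubling.

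SW480 was derived from a primary colon adenocarcinoma, and SW620 from a later lymph node metastasis of the same patient. The knockdown cells carried a short hairpin RNA against CDK5, HRAS, MAP2K1, MAP2K2, MAPK3 or NGFR. They were set against cells with a non-target hairpin, cells with the empty vector and non-transduced cells. Each knockdown and each vector control had 6 arrays per line, except the CDK5 knockdown in SW620 with 5, and non-transduced cells had 3 arrays per line, 101 in all. The labels number the replicates, and 4 styles of sample names divide the arrays into replicate 1, replicate 2, replicates 3 to 6 and replicate 7. The titles call all of these biological replicates, but no label states that replicates 3 to 6 were grown apart, so that p-values may measure partly technical spread. The endings of the sample names may mark replicates 3 and 4, and 5 and 6, as pairs, though no label says so. An alternative fit averaged the arrays of these pairs. The HRAS arrays of replicate 1 carry a different hairpin code from those of replicates 3 to 6, and those of replicate 2 carry no code. The values describe whole cultures, in which fewer cells of a type and less RNA per cell cannot be told apart.

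Translation of most mRNAs begins when EIF4E binds the cap at the 5′ end and joins the scaffold EIF4G1 and an EIF4A helicase in the eIF4F complex. The binding proteins EIF4EBP1 and EIF4EBP2 compete with the scaffold for EIF4E, and phosphorylation by mTOR releases them. EIF4E2, also called 4EHP, binds the cap but does not recruit the scaffold in the usual way. It acts with GIGYF proteins as a repressor of chosen mRNAs, and under low oxygen it takes part in cap-dependent translation with RBM4 and EPAS1. EIF4E is also a point where the RAS to ERK cascade meets translation, since ERK activates the MNK kinases that phosphorylate EIF4E.

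EIF4E2 lies on chromosome 2 and EIF4E on chromosome 4. The stretches of 250 bases before the first EIF4E2 start and before the EIF4E start are shown from RefSeq (build GRCh38.p14), because these related genes had different patterns across the treatments. Capitals mark the ETS motif CCGGAAGT and the E-box CACGTG, searched on both strands with no overlap between them.
EIF4E2, chr2:232550439-232550688, plus strand: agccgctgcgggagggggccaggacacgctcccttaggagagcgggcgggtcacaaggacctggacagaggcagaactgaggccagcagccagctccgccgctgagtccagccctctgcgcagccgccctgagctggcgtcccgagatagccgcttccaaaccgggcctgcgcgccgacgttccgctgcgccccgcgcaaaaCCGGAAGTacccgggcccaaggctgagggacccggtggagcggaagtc
EIF4E, chr4:98929134-98929383, minus strand: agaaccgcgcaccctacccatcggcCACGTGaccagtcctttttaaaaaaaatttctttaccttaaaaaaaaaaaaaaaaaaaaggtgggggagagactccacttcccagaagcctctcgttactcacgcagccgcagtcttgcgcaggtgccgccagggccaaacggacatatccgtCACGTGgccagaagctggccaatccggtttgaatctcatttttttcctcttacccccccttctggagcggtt
The EIF4E2 stretch held 1 ETS motif, whose first base lies 48 bases before the start, and no E-box. EIF4E2 has 2 listed starts, and the stretch before the other held neither motif. The EIF4E stretch held 2 E-boxes, at 225 and 72 bases before the start, and no ETS motif. Among 35116 stretches of the same length, 3.42% held the ETS motif and 6.34% the E-box. Neither stretch held the CRE motif TGACGTCA, which 1.65% of all stretches held. The GC box GGGCGG, not marked by capitals, occurred at 2 places in the EIF4E2 stretch and at 0 in the EIF4E stretch. Of all stretches, 42.6% held it. The matches are letters in a window and carry no measurement of binding.

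The series held 6 arrays that stood apart, and results that rest on them are given with and without these 6. On 3 SW620 arrays (MAP2K1 and MAPK3 replicate 2, NGFR replicate 1) the GAPDH control probe sets for the 3′ end exceeded those for the 5′ end by 6.04, 2.95 and 3.82, against at most 1.47 on any other array, a difference that is used as a sign of RNA quality. On the SW480 arrays of replicate 1 for MAP2K1, MAP2K2 and MAPK3, the genes that separate the lines lay 0.389, 0.801 and 0.633 of the way towards SW620, on a scale where the SW480 mean is 0 and the SW620 mean 1, against at most 0.143 on the other SW480 arrays. Averaged over the lines, each target was lower in its own knockdown, by between 0.45 for MAPK3 and 1.98 for NGFR. The fall within each line is not reported here, so these values do not show that a target fell in both. Of 11 epithelial markers, 8 were above the array median in both lines, KRT20 and CDH17 were below it in both, and LGR5 was at 8.22 in SW620 and below it at 3.87 in SW480. The leukocyte gene PTPRC was at 4.00 in SW620 and 4.05 in SW480, and the endothelial gene CDH5 at 3.72 in SW620 and 3.73 in SW480, whereas 1 of 3 leukocyte, 1 of 3 endothelial and 2 of 3 fibroblast markers were above the median.

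EIF4E2 was higher in the knockdown of each of the 6 targets than with the vector controls in both lines, and the values that follow chose the gene, so they are described without a test. In replicate 1 of SW480, its level was 8.58 in the CDK5, 9.57 in the HRAS, 8.64 in the MAP2K1, 8.99 in the MAP2K2, 8.35 in the MAPK3 and 8.62 in the NGFR knockdown, against 6.67 with the non-target hairpin, 7.70 with the empty vector and 8.06 in non-transduced cells. In replicate 2 of SW480, it was 7.94, 8.31, 8.17, 7.88, 7.78 and 7.86 in the same knockdowns, against 6.29 with the non-target hairpin, 7.00 with the empty vector and 6.85 in non-transduced cells. All 12 of these knockdown arrays were above the controls of their own replicate of the line. In replicates 3 to 6 of SW480, EIF4E2 lay between 9.57 and 9.65 with the CDK5 hairpin, 9.92 and 10.02 with HRAS, 9.39 and 9.61 with MAP2K1, 9.14 and 9.31 with MAP2K2, 9.55 and 9.68 with MAPK3 and 9.48 and 9.56 with NGFR, against 8.44 to 8.65 with the non-target hairpin and 9.13 to 9.15 with the empty vector. The lowest MAP2K2 array, at 9.14, lay within the range of the empty vector there, while the HRAS arrays were clear of every other group.

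In SW620 the knockdowns were likewise above the controls of replicates 1 and 2. In replicate 1, EIF4E2 was at 8.78 in the HRAS, 8.47 in the MAP2K1, 9.05 in the MAP2K2, 8.996 in the MAPK3 and 9.79 in the NGFR knockdown, against 6.87 with the non-target hairpin, 7.67 with the empty vector and 8.30 in non-transduced cells. In replicate 2, it was at 8.38 in the CDK5, 8.32 in the HRAS, 9.24 in the MAP2K1, 8.53 in the MAP2K2, 9.92 in the MAPK3 and 8.29 in the NGFR knockdown, against 6.87 with the non-target hairpin, 7.53 with the empty vector and 7.13 in non-transduced cells. The 9.24, 9.79 and 9.92 are the readings of the 3 arrays with the wide GAPDH difference, and on these the next brightest EIF4E2 probe set, at 7.985, 8.05 and 6.79, was below every other knockdown array of its line and replicate. What part this had in the EIF4E2 values was not tested, and the fits are given without these arrays too. In replicates 3 to 6, EIF4E2 lay between 9.66 and 9.74 with the CDK5 hairpin, 9.58 and 9.62 with HRAS, 9.56 and 9.64 with MAP2K1, 9.57 and 9.67 with MAP2K2, 9.47 and 9.69 with MAPK3 and 9.21 and 9.30 with NGFR, against 9.02 to 9.06 with the non-target hairpin and 9.23 to 9.30 with the empty vector. The NGFR arrays overlapped the empty vector there, and the other 5 knockdowns did not. The 2 non-transduced arrays of replicate 7 read 9.27 in SW480 and 9.25 in SW620, next to the empty vector arrays of replicates 3 to 6.

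**Figure D1:**
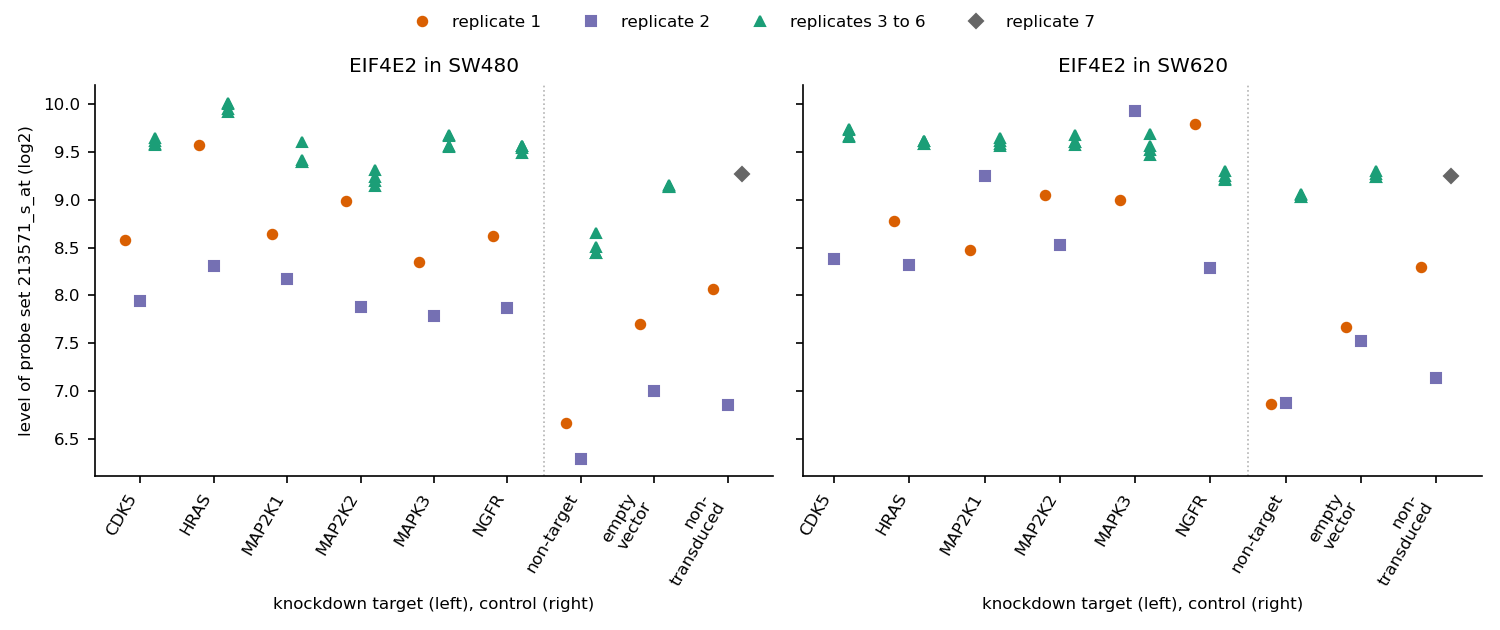
EIF4E2 level (log2, probe set 213571_s_at) on each array, by treatment in SW480 (left) and SW620 (right), with knockdowns left and controls right of the dotted line and symbols for the replicates. Within a replicate series nearly all knockdown arrays lie above both vector controls, and the non-target arrays are the lowest of the vector arrays.

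Fitted over all replicates with the label series taken out, the EIF4E2 difference from the 2 vector controls together was, as the mean of the lines, 0.89 ± 0.12 for CDK5, 1.09 ± 0.12 for HRAS, 0.88 ± 0.12 for MAP2K1, 0.80 ± 0.12 for MAP2K2, 0.96 ± 0.12 for MAPK3 and 0.79 ± 0.12 for NGFR (SE), which are folds of 1.86, 2.12, 1.84, 1.74, 1.95 and 1.73. The lowest of the 12 values within a line was 0.66 for NGFR in SW620, and the highest 1.44 for HRAS in SW480. The NGFR value in SW620 was 0.41 without the 6 arrays, and 0.29 at its lowest with 1 replicate number left out. On 66 of 71 knockdown arrays EIF4E2 was above every vector array of the same line and series. The 5 exceptions were 1 MAP2K2 array in SW480 and 4 NGFR arrays in SW620. In these contrasts 19.4% of all 19775 genes were called for CDK5, 36% for HRAS, 15.2% for MAP2K1, 19.2% for MAP2K2, 25.6% for MAPK3 and 28.7% for NGFR at an adjusted p under 0.05, and nothing is read from EIF4E2 beside them. Without the 6 arrays that stood apart, the EIF4E2 differences were 0.88, 1.09, 0.77, 0.74, 0.83 and 0.66 in the same order of targets.

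The size of the EIF4E2 difference was larger in some replicates than in others. In replicate 1 the 11 knockdown arrays exceeded the vector mean by 1.16 to 2.52, with a mean of 1.67. In replicate 2 the 12 arrays exceeded it by 1.09 to 2.72, with a mean of 1.46. In replicates 3 to 6 the 12 knockdown groups exceeded it by 0.09 to 1.14, with a mean of 0.57. The direction was thus shared by every series, and the size in replicates 3 to 6 was below that of both earlier series.

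The size also moved with the control. Against the empty vector alone, the EIF4E2 difference averaged over the lines was 0.62 ± 0.14 for CDK5, 0.81 ± 0.14 for HRAS, 0.60 ± 0.14 for MAP2K1, 0.52 ± 0.14 for MAP2K2, 0.69 ± 0.14 for MAPK3 and 0.51 ± 0.14 for NGFR. Against the non-target hairpin alone it was between 1.06 for NGFR and 1.36 for HRAS. Against non-transduced cells it was between 0.77 for NGFR and 1.07 for HRAS, each ± 0.20 or 0.21. All 6 knockdowns stayed above each of the 3 controls in the fit. Matched by series, 1 of 12 group differences from the empty vector in replicates 3 to 6 was below 0, at -0.02, and none was below 0 in replicate 1 or 2.

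**Figure D2:**
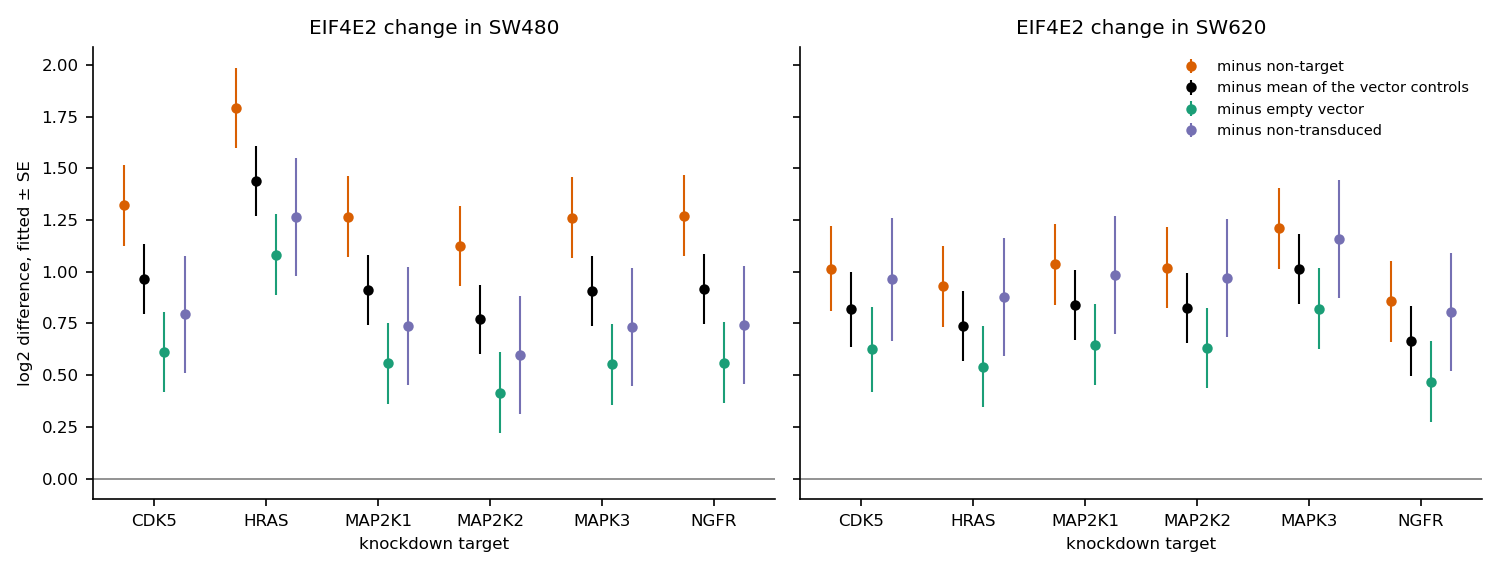
Fitted EIF4E2 difference (log2, ± SE) of each knockdown from the non-target hairpin, the mean of both vector controls, the empty vector and non-transduced cells, in SW480 and SW620. All points lie above 0, those against the non-target hairpin are the highest in each knockdown, and those against the empty vector are the lowest.

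The controls were therefore compared with one another. This contrast did not itself choose the gene, but both vector controls form the baseline of the rise that did. A low EIF4E2 level on the non-target or other vector arrays is thus favoured by the choice, and the values are described with that limit. EIF4E2 averaged 0.55 ± 0.14 lower with the non-target hairpin than with the empty vector (log2 difference -0.55), which missed the threshold (limma, adjusted p = 0.089). The difference was -0.71 ± 0.20 in SW480 and -0.39 ± 0.20 in SW620. In each line the non-target array was below the empty vector array of the same number in 6 of 6 replicates, by 0.48 to 1.03 in SW480 and by 0.18 to 0.80 in SW620. EIF4E2 ranked as gene 13 of 19775 by how far it was lower with the non-target hairpin, in a comparison where 0.086% of all genes were called. Without the 6 arrays that stood apart, none of which is a vector control, the same difference of -0.55 had an SE of 0.097 and passed (limma, adjusted p = 0.00021), and 0.647% of all genes were called. The next brightest probe set also passed with all arrays, with -0.50 ± 0.11 (limma, adjusted p = 0.016 over 54675 probe sets). Both vector controls together differed from non-transduced cells by -0.01 ± 0.19 (limma, adjusted p = 0.98), where 2.13% of all genes were called. In a fit of only those groups the EIF4E2 difference was -0.51 ± 0.12 and passed (limma, adjusted p = 0.0043), and with 1 replicate number left out at a time it lay between -0.30 and 0.47, so that no direction is read from it. No member was called by limma in that comparison over all arrays, and 1 of 7, EIF4EBP2, had an unadjusted p under 0.05.

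In the order of fitted EIF4E2 levels in SW480, HRAS came first at 10.08, followed by CDK5 at 9.61, NGFR at 9.56, MAP2K1 at 9.555, MAPK3 at 9.55, MAP2K2 at 9.41, the empty vector at 8.998, non-transduced cells at 8.82 and the non-target hairpin at 8.29. The gaps between CDK5 and NGFR, NGFR and MAP2K1, MAP2K1 and MAPK3, and MAPK3 and MAP2K2 were 0.05, 0.00, 0.01 and 0.14, of which the first was about as wide as the spread of single arrays (1.03 times the pooled SD) and the others narrower. The gap from HRAS to CDK5 was 0.47, or 2.82 times that spread. In SW620 the order was MAPK3 at 9.85, MAP2K1 at 9.68, MAP2K2 at 9.665, CDK5 at 9.658, HRAS at 9.575, NGFR at 9.50, the empty vector at 9.03, non-transduced cells at 8.70 and the non-target hairpin at 8.64. Among the 6 knockdowns there, the widest gap between neighbours was 0.17, from MAPK3 to MAP2K1, or 0.354 times the pooled SD, and the gap of 0.08 from CDK5 to HRAS was 1.03 times it. The first places of MAPK3 and MAP2K1 in SW620 rested on the arrays with the wide GAPDH difference: without the 6 arrays the SW620 differences from the vector controls were 0.83 for MAP2K2, 0.80 for CDK5, 0.74 for HRAS, 0.73 for MAPK3, 0.65 for MAP2K1 and 0.41 for NGFR. The step from the lowest knockdown to the empty vector was 0.41 in SW480 and 0.47 in SW620. That step is part of the contrast that chose the gene. In SW620 the lowest knockdown was NGFR, whose fit includes an array with the wide GAPDH difference. Its mean in replicates 3 to 6 was 9.24, against 9.26 with the empty vector. Non-transduced cells were fitted below the empty vector, but in replicate 1 they were above it in both lines and in replicate 2 below it. No order of these controls is thus read.

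EIF4E2 was tested for a difference between the lines and between the knockdowns. The EIF4E2 change of the HRAS knockdown was 0.74 ± 0.17 in SW620, against 1.44 ± 0.17 in SW480, a difference of -0.70 ± 0.24 that passed (limma, adjusted p = 0.029). Against the empty vector alone it was -0.54 ± 0.28 and did not pass (limma, adjusted p = 0.17), and by the next brightest probe set it was -0.31 ± 0.18 (limma, adjusted p = 0.25). It also missed the threshold for the mean of all probe sets, at -0.23 (limma, adjusted p = 0.09), and with any of replicates 3 to 6 left out (adjusted p = 0.085 to 0.117). With arrays averaged in pairs it was -0.70 and did not pass (limma, adjusted p = 0.283). The other 5 knockdowns had differences between -0.25 for NGFR and 0.11 for MAPK3, none of which passed. Against the mean of the other 5 knockdowns, HRAS was 0.22 ± 0.11 higher for EIF4E2 (limma, adjusted p = 0.11), and the other knockdowns lay between -0.13 and 0.07. When the 6 arrays were left out, the HRAS value was 0.31 ± 0.08 (limma, adjusted p = 0.00061) and the NGFR value -0.20 ± 0.08 (limma, adjusted p = 0.041), and the line difference of NGFR was -0.50 ± 0.17 (limma, adjusted p = 0.02). Among vector controls, EIF4E2 was 0.32 ± 0.15 higher in SW620 than in SW480 (limma, adjusted p = 0.062), in a comparison that called 47.1% of all genes. With those arrays left out this difference passed (limma, adjusted p = 0.0039), and 53.4% of all genes were called.

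The 4 EIF4E2 probe sets did not all show the same pattern. The brightest, 213571_s_at, had a mean level of 8.98, then came 209393_s_at at 8.81, 226734_at at 6.66 and 213570_at at 6.06. The probe set 209393_s_at was above every vector array of its line and series on 70 of 71 knockdown arrays, and its difference from the vector controls lay between 0.58 for MAPK3 and 0.90 for HRAS. Both bright probe sets thus placed all 6 knockdowns above the controls. By 226734_at, CDK5 was 0.46 ± 0.06, HRAS 0.35 ± 0.06, MAP2K1 0.21 ± 0.06 and MAP2K2 0.25 ± 0.06 above the vector controls, whereas MAPK3 was -0.26 ± 0.06 and NGFR -0.30 ± 0.06 from them. On that probe set the MAPK3 arrays of replicates 3 to 6 read 6.61 to 6.62 in SW480 and 6.46 to 6.60 in SW620, below the empty vector arrays at 7.01 to 7.15 in SW480 and 6.86 to 6.92 in SW620. The dimmest, 213570_at, differed from the controls by at most 0.24, and 37 of 71 arrays were above their vector controls on each of the 2 dimmer probe sets. The deviations of 209393_s_at, 226734_at and 213570_at from their line and series means correlated with those of the main probe set at 0.65, 0.215 and 0.283 over 101 arrays, which share samples and normalisation.

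**Figure D3:**
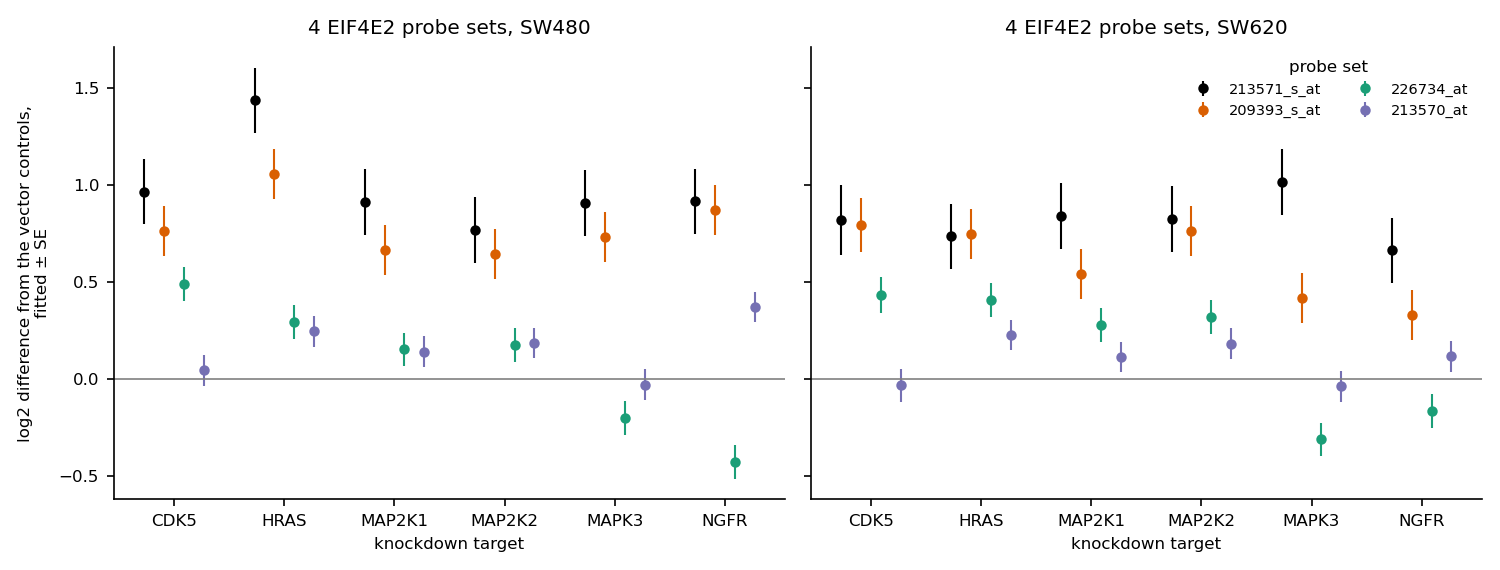
Fitted difference of each knockdown from the mean of the vector controls (log2, ± SE) for the 4 EIF4E2 probe sets in SW480 and SW620. The 2 brightest are above 0 throughout, and 226734_at is below 0 for MAPK3 and NGFR.

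The genes whose 18 fitted group levels, centred within each line, were most like those of EIF4E2 were RNPS1 (r = 0.911), TAF11 (0.909), ZHX1 (0.907), TDG (0.898) and YY1 (0.893), followed by MORF4L1, MPHOSPH10, SRP19, DIABLO and PSMC1 down to 0.841. RNPS1 is an RNA-binding splicing factor, TAF11 a subunit of TFIID, TDG a DNA glycosylase and YY1 a zinc finger transcription factor. Averaged over the 6 knockdowns these 10 genes were 0.17 to 0.67 above the vector controls, a direction that their choice by likeness to EIF4E2 favours. Their non-target minus empty vector differences lay between -0.11 and 0.07, against -0.55 for EIF4E2. The 5 genes most opposed to EIF4E2 were GSTK1 (r = -0.856), NAGLU, TSPAN4, PARP3 and IGSF9B (-0.824), with mean changes of -0.27 to -0.53, a direction likewise favoured by their choice. Among the other members, the same r was 0.232 for EIF4E, -0.318 for EIF4E3, -0.501 for EIF4EBP1, 0.083 for EIF4EBP2, -0.055 for EIF4G1 and -0.019 for EIF4A2. These correlations describe 18 groups whose levels share arrays and control groups.

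The other 6 measured members were tested in the knockdowns, and 8 of 36 pairs of gene and knockdown, averaged over the lines, passed: 4 higher and 4 lower. Without the 6 arrays that stood apart, 16 of 36 passed, 10 higher and 6 lower. The shares of all genes called then were 30.4% for CDK5, 45.1% for HRAS, 20.8% for MAP2K1, 27.3% for MAP2K2, 32.7% for MAPK3 and 37.5% for NGFR, against 19.4%, 36%, 15.2%, 19.2%, 25.6% and 28.7% over all arrays. Within SW480 alone 3 of 36 pairs passed, where 8.06%, 26.2%, 6.54%, 5.17%, 10.7% and 24% of all genes were called for CDK5, HRAS, MAP2K1, MAP2K2, MAPK3 and NGFR. Within SW620 alone 8 of 36 passed, where the shares were 24%, 31%, 19.1%, 23.2%, 29.8% and 26.3%.

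EIF4E, the cap-binding subunit of eIF4F, was called by limma in none of the 6 knockdowns by its main probe set, and 0 of 6 had an unadjusted p under 0.05. Its differences from the vector controls, averaged over the lines, lay between -0.12 ± 0.14 for NGFR (limma, adjusted p = 0.53) and 0.23 ± 0.14 for HRAS (limma, adjusted p = 0.18). The NGFR arrays in SW620 read 6.03 in replicate 1, the array with the wide GAPDH difference, 9.30 in replicate 2 and 9.53 to 9.63 in replicates 3 to 6, against non-target arrays at 9.12, 8.58 and 9.13 to 9.40 and empty vector arrays at 8.96, 8.62 and 9.14 to 9.32. Outside that 1 array the NGFR arrays of SW620 were all above the vector arrays of their series. Without the 6 arrays EIF4E rose in the NGFR knockdown of SW620 by 0.39 ± 0.11 (limma, adjusted p = 0.0053) and in the HRAS knockdown averaged over the lines by 0.23 ± 0.07 (limma, adjusted p = 0.0073). In the HRAS knockdown of SW480, replicates 3 and 4 read 9.01 and 9.11, and replicates 5 and 6 read 9.85 and 9.89, which did not overlap. The GAPDH difference between 3′ and 5′ probe sets was 1.39 and 1.47 on replicates 3 and 4 of that group and 0.41 and 0.32 on replicates 5 and 6, and its part in the EIF4E split was not tested. EIF4E was lower in SW620 than in SW480 vector controls by 0.42 (-0.42 ± 0.16, limma, adjusted p = 0.026). By the mean of all EIF4E probe sets the difference was -0.15 (limma, adjusted p = 0.12), and with any of replicates 3 to 6 left out it missed the threshold (adjusted p = 0.055 to 0.086). With arrays averaged in pairs it was -0.41 and did not pass (limma, adjusted p = 0.188). Of the 4 dimmer EIF4E probe sets, 2 passed for MAPK3, 201436_at at 0.39 (limma, adjusted p = 0.0079) and 201437_s_at at 0.35 (limma, adjusted p = 0.0066), where the main probe set gave 0.10.

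EIF4E3, a cap-binding relative of EIF4E, fell in the CDK5 and HRAS knockdowns of SW480. In the CDK5 knockdown of SW480 it read 5.44 and 4.87 in replicates 1 and 2 and 5.74 to 5.90 in replicates 3 to 6, against 5.70, 5.74 and 6.26 to 6.47 with the non-target hairpin and 6.51, 5.32 and 6.65 to 6.80 with the empty vector. All 6 CDK5 arrays were below every vector array of their series. The SW480 change was -0.69 ± 0.12 for CDK5 (limma, adjusted p = 2.1e-05) and -0.64 ± 0.12 for HRAS (limma, adjusted p = 2.1e-05), and in SW620 the values were 0.07 ± 0.13 and 0.00 ± 0.12. The HRAS arrays of SW480 read 5.07 in replicates 1 and 2, 5.69 and 5.62 in replicates 3 and 4, and 6.21 and 6.28 in replicates 5 and 6. The lower readings of replicates 3 and 4 were thus on the arrays with GAPDH differences of 1.39 and 1.47, whose part in the HRAS value was not tested. In the NGFR knockdown of SW480, EIF4E3 was higher by 0.34 ± 0.12 (limma, adjusted p = 0.031), but against the empty vector alone by 0.18 (adjusted p = 0.45), and the call was lost after a second quantile normalisation (adjusted p = 0.12) and with any of replicates 3 to 6 left out (adjusted p = 0.117 to 0.153). Arrays averaged in pairs gave 0.24 there (limma, adjusted p = 0.411). The dimmer probe set 225941_at gave the same directions in SW480, with -0.52 for CDK5, -0.81 for HRAS and 0.46 for NGFR, and for NGFR in SW620 it gave -0.56 (limma, adjusted p = 0.0021), where the main probe set gave -0.07. EIF4E3 was 1.04 ± 0.12 lower in SW620 than in SW480 vector controls (log2 difference -1.04, limma, adjusted p = 1.2e-11), and all 4 of its probe sets had that direction.

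EIF4EBP1, the first of the inhibitors of EIF4E, was lower in SW620 knockdowns than in SW620 vector controls. In replicates 3 to 6 of SW620 it lay between 9.88 and 9.93 with the CDK5 hairpin, 9.74 and 9.90 with HRAS, 9.69 and 9.71 with MAP2K1, 9.56 and 9.80 with MAP2K2, 9.96 and 10.02 with MAPK3 and 9.29 and 9.45 with NGFR, against 10.27 to 10.30 with the non-target hairpin and 10.48 to 10.51 with the empty vector. All 6 knockdowns were below both vector controls in that series. Over all arrays, EIF4EBP1 fell in SW620 by 0.74 in the MAP2K1 (limma, adjusted p = 0.016), by 0.95 in the MAP2K2 (adjusted p = 0.0013), by 0.86 in the MAPK3 (adjusted p = 0.0026) and by 0.90 in the NGFR knockdown (adjusted p = 0.0022), each ± 0.23. The MAP2K1 call was lost against the non-target hairpin alone (-0.66, limma, adjusted p = 0.096) and with any of replicates 3 to 6 left out (adjusted p = 0.067 to 0.07). The MAPK3 arrays of replicates 1 and 2 read 11.04 and 5.70, and replicate 2 is an array with the wide GAPDH difference. Once the 6 arrays were left out, MAPK3 was at -0.16 ± 0.12 (limma, adjusted p = 0.32), while CDK5 fell by 0.46 and HRAS by 0.52 (limma, adjusted p = 0.0014 and 6.5e-05) and the other 3 still passed. Averaged over the lines, the MAP2K2 knockdown was at -0.60 ± 0.16 (limma, adjusted p = 0.0054) and the NGFR knockdown at -0.59 ± 0.16 (adjusted p = 0.0039). With arrays averaged in pairs both of these missed the threshold (limma, adjusted p = 0.0893 and 0.114). So did the SW620 values of MAP2K1, MAP2K2 and NGFR (adjusted p = 0.213, 0.0675 and 0.112). In SW480 the values over all arrays lay between -0.28 and 0.30 and none passed, and without the 6 arrays NGFR passed there at -0.28 ± 0.11 (limma, adjusted p = 0.042). In that line the MAPK3 arrays read 9.93, 9.60 and 9.44 to 9.51, against 9.55, 9.01 and 9.22 to 9.39 with the non-target hairpin and 9.75, 9.05 and 9.19 to 9.25 with the empty vector, and all 6 were above the vector arrays of their series. EIF4EBP1 was 1.04 ± 0.20 higher in SW620 than in SW480 vector controls (limma, adjusted p = 5e-06).

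EIF4EBP2, the second inhibitor, rose in the HRAS, MAP2K1 and MAP2K2 knockdowns. Averaged over the lines the rises were 0.27 ± 0.09 (limma, adjusted p = 0.015), 0.34 ± 0.09 (adjusted p = 0.0041) and 0.42 ± 0.09 (adjusted p = 0.00025). Against the empty vector alone the HRAS value was 0.18 (limma, adjusted p = 0.19) and the MAP2K1 value 0.26 (adjusted p = 0.096), and the mean of all probe sets gave 0.07 for HRAS (adjusted p = 0.33). With arrays averaged in pairs HRAS at 0.34 and MAP2K1 at 0.38 did not pass (limma, adjusted p = 0.05 and 0.0983). Within SW480 the HRAS, MAP2K1 and MAP2K2 values were 0.03, 0.18 and 0.33, each ± 0.13. None of these passed (limma, adjusted p = 0.90, 0.48 and 0.12), though MAP2K2 did without the 6 arrays (0.37 ± 0.12, adjusted p = 0.043). Within SW620 the values were 0.50, 0.51 and 0.52, and all passed (limma, adjusted p = 0.0011, 0.0021 and 0.0013). With arrays averaged in pairs the MAP2K2 value there was 0.58 and did not pass (limma, adjusted p = 0.0506). In SW620 the MAP2K2 arrays read 8.67, 9.58 and 9.38 to 9.46 in replicates 1, 2 and 3 to 6, against 8.15, 8.32 and 8.896 to 9.001 with the non-target hairpin and 8.28, 8.65 and 9.01 to 9.15 with the empty vector. All 6 MAP2K2 arrays were above the vector arrays of their series in each line, and so were all 6 HRAS and all 6 MAP2K1 arrays in SW620. In the NGFR knockdown of SW620, EIF4EBP2 read 9.04 and 9.56 in replicates 1 and 2 but 8.08 to 8.16 in replicates 3 to 6, so that the series went opposite ways. Its difference over all arrays was -0.27 ± 0.13 (limma, adjusted p = 0.11), and without the 6 arrays it was -0.44 ± 0.12 (adjusted p = 0.0033). Of its 4 dimmer probe sets, 208770_s_at also passed for MAP2K1 at 0.47 and MAP2K2 at 0.31 (limma, adjusted p = 2.1e-05 and 0.0047), and the other 3 probe sets stayed between -0.04 and 0.14 for the HRAS, MAP2K1 and MAP2K2 knockdowns.

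EIF4G1, the scaffold of eIF4F, was called by limma in none of the knockdowns over all arrays, with 1 of 6 at an unadjusted p under 0.05, and in 5 of 6 without the 6 arrays that stood apart. On 2 arrays with the wide GAPDH difference it read 6.05 (MAP2K1, SW620) and 4.99 (MAPK3, SW620), against at least 8.58 on all others. In replicates 3 to 6 of SW620 it lay between 9.44 and 9.58 with the CDK5 hairpin, 9.44 and 9.51 with HRAS, 9.56 and 9.63 with MAP2K1, 9.55 and 9.74 with MAP2K2, 9.45 and 9.56 with MAPK3 and 8.93 and 9.07 with NGFR, against 8.76 to 8.83 with the non-target hairpin and 8.80 to 8.84 with the empty vector. All 6 knockdowns were above both vector controls there. Over all arrays HRAS came nearest to the threshold, at 0.53 ± 0.23 averaged over the lines (limma, adjusted p = 0.058). After the 6 arrays were removed, EIF4G1 averaged over the lines rose by 0.39 in CDK5, 0.53 in HRAS, 0.42 in MAP2K1, 0.28 in MAP2K2 and 0.28 in MAPK3, with adjusted p between 1.6e-08 for HRAS and 0.0061 for MAPK3 (limma), and NGFR was at 0.03. In SW620 these 5 knockdowns rose by between 0.47 for MAPK3 and 0.65 for HRAS. In SW480 only HRAS passed, at 0.41 ± 0.11 (limma, adjusted p = 0.0017). CDK5, MAP2K1, MAP2K2 and MAPK3 were at 0.14, 0.23, 0.06 and 0.08 there. The second EIF4G1 probe set, 208624_s_at, passed over all arrays for HRAS at 0.59 (limma, adjusted p = 0.00145). EIF4G1 was 0.72 ± 0.27 lower in SW620 than in SW480 vector controls (log2 difference -0.72, limma, adjusted p = 0.024), a call lost with any of replicates 3 to 6 left out (adjusted p = 0.069 to 0.079). With arrays averaged in pairs it was -0.70 and did not pass (limma, adjusted p = 0.185).

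EIF4A2, an RNA helicase of the eIF4A family, was read by 1 probe set of low signal, at a mean of 3.42 and the percentile 7.22 of all probe sets. Another 2 probe sets named EIF4A2 together with other genes and were not used. No low level of the mRNA is therefore read from this signal. The only EIF4A2 call averaged over the lines was a rise of 0.18 ± 0.06 in the NGFR knockdown (limma, adjusted p = 0.0079), which without replicate 5 was 0.15 (adjusted p = 0.076). Its levels in NGFR cells were 3.15 to 4.01 in SW480 and 3.33 to 3.78 in SW620, against 3.02 to 3.81 and 3.14 to 3.49 with the non-target hairpin and 3.10 to 3.82 and 2.94 to 3.62 with the empty vector. The ranges overlapped in both lines, and 5 of 6 NGFR arrays in SW620 were above the vector arrays of their series.

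**Figure D4:**
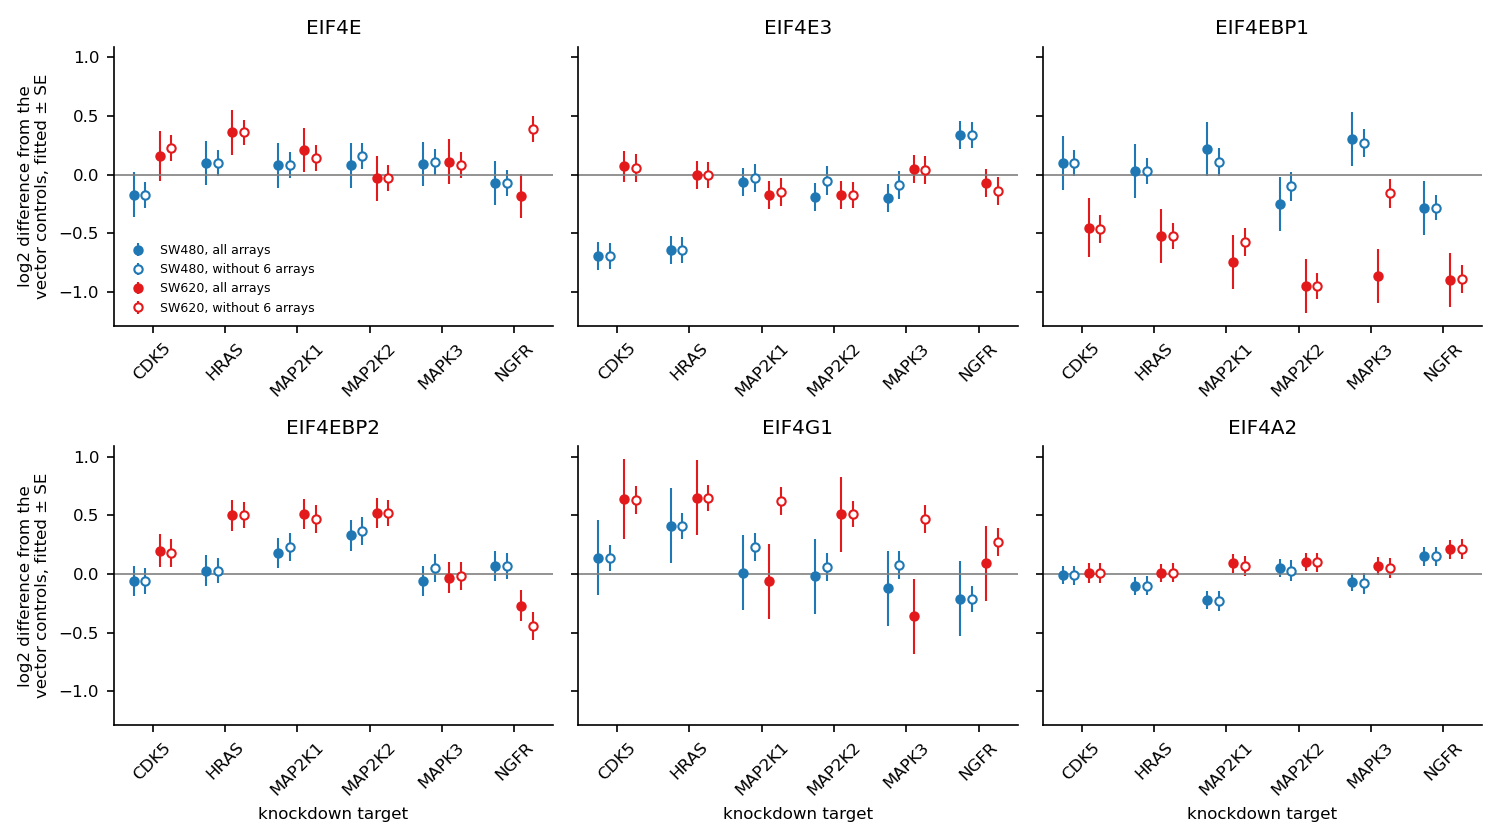
Fitted difference of each knockdown from the mean of the vector controls (log2, ± SE) for EIF4E, EIF4E3, EIF4EBP1, EIF4EBP2, EIF4G1 and EIF4A2, in SW480 (blue) and SW620 (red), over all arrays (filled) and without the 6 arrays that stood apart (open). EIF4EBP1 is below 0 in SW620 in all 6 knockdowns, EIF4E3 is low in SW480 for CDK5 and HRAS, and the EIF4G1 values of MAP2K1 and MAPK3 in SW620 change sign when the 6 arrays are left out.

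The difference between lines was tested for all 7 measured genes. Of 42 pairs of gene and knockdown, 5 passed, where the share of all genes was 15.6% for CDK5, 18.9% for HRAS, 11.5% for MAP2K1, 10.4% for MAP2K2, 17% for MAPK3 and 23.7% for NGFR. Besides EIF4E2 with HRAS, the change of EIF4E3 was 0.76 ± 0.18 higher in SW620 than in SW480 for CDK5 (limma, adjusted p = 0.0016) and 0.63 ± 0.17 higher for HRAS (adjusted p = 0.0053). With the empty vector and the non-target hairpin EIF4E3 averaged 5.34 and 5.17 in SW620, against 6.45 and 6.14 in SW480. Array medians lay between 5.05 and 5.28, and whether the low SW620 level limits a fall there was not tested. The change of EIF4EBP1 in SW620 minus that in SW480 was -0.97 ± 0.33 for MAP2K1 (limma, adjusted p = 0.042, and 0.057 with a replicate block or 0.071 against the empty vector alone) and -1.16 ± 0.33 for MAPK3 (adjusted p = 0.0088). With any of replicates 3 to 6 left out the MAP2K1 value missed the threshold (limma, adjusted p = 0.132 to 0.149). The HRAS value of EIF4E3 missed it without replicate 3 (adjusted p = 0.059), and when only the non-target arrays served as control (adjusted p = 0.056). When replicates 3 and 4, and 5 and 6, were averaged, no line difference passed. The 5 named here then had adjusted p between 0.0996 and 0.381 (limma). With the 6 arrays left out, 17 of 42 passed, with 5 of them in EIF4EBP1, all lower in SW620, and the MAPK3 value of EIF4EBP1 was -0.43 (limma, adjusted p = 0.068). The shares of all genes without these arrays were 27%, 30.5%, 12.9%, 18.6%, 16.2% and 30% in the same order of targets.

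When each knockdown was set against the mean of the other 5, 6 of 42 pairs passed, where 12.1% of all genes were called for CDK5, 30.4% for HRAS, 12.4% for MAP2K1, 5.21% for MAP2K2, 19.6% for MAPK3 and 26.2% for NGFR. EIF4EBP2 was 0.32 ± 0.08 higher in the MAP2K2 (limma, adjusted p = 0.0076), 0.25 lower in the MAPK3 (-0.25 ± 0.08, adjusted p = 0.019) and 0.31 lower in the NGFR knockdown (-0.31 ± 0.08, adjusted p = 0.0017) than in the others. EIF4E3 was 0.33 ± 0.08 higher in the NGFR knockdown (limma, adjusted p = 0.00045) and 0.21 lower in the HRAS knockdown (-0.21 ± 0.08, adjusted p = 0.027). EIF4A2 was 0.19 ± 0.05 higher in the NGFR knockdown (limma, adjusted p = 0.0019). By the mean of all probe sets the 3 EIF4EBP2 values were 0.15, -0.12 and -0.09 and none passed (limma, adjusted p = 0.074, 0.097 and 0.22). The HRAS value of EIF4E3 missed the threshold without replicate 3 or 4 (adjusted p = 0.164 and 0.168), and the MAP2K2 value of EIF4EBP2 with any of replicates 3 to 6 left out (adjusted p = 0.066 to 0.114). With arrays averaged in pairs both missed it (limma, adjusted p = 0.134 and 0.426). So did the MAPK3 and NGFR values of EIF4EBP2 (adjusted p = 0.123 and 0.309). The NGFR knockdown passed for 3 of the 7 genes over all arrays, one of them the dim EIF4A2, and for 6 of 7 without the 6 arrays, all but EIF4E. Leaving out the 6 arrays, 14 of 42 passed, where 21.1%, 39%, 17.1%, 11%, 27.1% and 37.8% of all genes were called in the same order of targets, and the MAPK3 value of EIF4EBP2 was -0.17 (limma, adjusted p = 0.095).

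The surrounding machinery was read from 4 lists of genes. Of the 12 further eIF4F subunits and helpers listed, 8 were measured, and they passed as higher in 12 and as lower in 9 of 48 pairs with a knockdown, or 43.8%, against 15.2% to 36% of all genes by knockdown. EIF4G2, a scaffold relative that supports initiation without EIF4E, rose in 5 of 6 knockdowns, by 0.155 in MAP2K2 to 0.32 in CDK5, and was at 0.12 in NGFR (limma, adjusted p = 0.081). PAIP2, which restrains the poly(A)-binding protein, had the widest range, from -1.04 in the MAPK3 to 0.26 in the NGFR knockdown. The median change of the list lay between -0.07 and 0.05, against -0.01 to 0.01 over all genes.

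The 14 genes that act with EIF4E2 or in the same repression and hypoxia pathways were all measured, and passed as higher in 15 and as lower in 11 of 84 pairs, or 31%, against the same 15.2% to 36% of all genes. GIGYF2, the main partner of EIF4E2, was higher in 2 knockdowns, and GIGYF1 was lower in 1. The helicase DDX6 and the scaffold TNRC6B were each higher in 3 knockdowns and lower in none. EIF4ENIF1 was higher in 3 and lower in 1, TNRC6C was lower in 1, and RBM4 was higher in 1. ZFP36, which brings EIF4E2 complexes to AU-rich mRNAs, was lower in 3. EPAS1 was lower in 2, and ranged from -0.90 to -0.16 over the 6. No gene of this list passed in the same direction in 4 or more knockdowns over all arrays. Leaving out those that stood apart, the list passed in 22 pairs as higher and 21 as lower, where 20.8% to 45.1% of all genes were called, and ZFP36 was then lower in 5 knockdowns, ARIH1 lower in 4, and TNRC6A and EDF1 higher in 4.

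**Figure D5:**
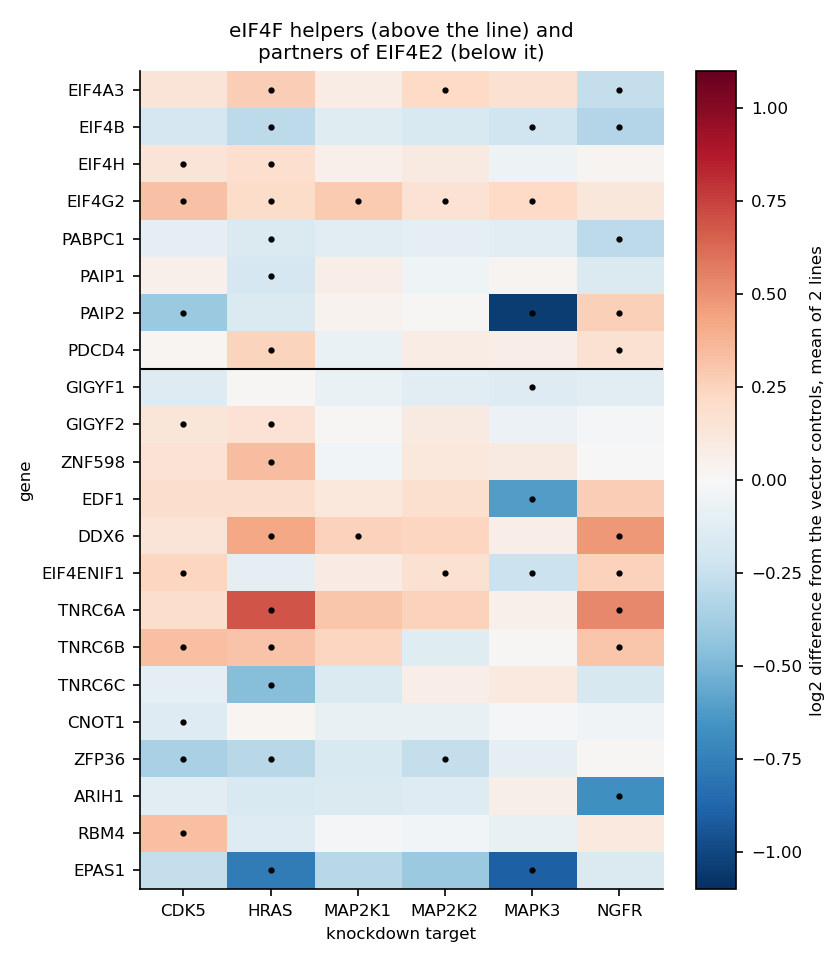
Difference of each knockdown from the mean of the vector controls, averaged over SW480 and SW620 (log2, colour), for 8 eIF4F helpers (above the line) and 14 partners of EIF4E2 (below it), with a dot where the adjusted p was under 0.05. Most rows hold 3 dots or fewer, and EIF4G2 holds 5.

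The 14 kinases and regulators upstream of the cap passed as higher in 8 and as lower in 14 of 84 pairs, or 26.2%, against 15.2% to 36% of all genes. DDIT4, an inhibitor of mTOR complex 1 that is induced by stress, fell in all 6 knockdowns, with changes between -2.11 in HRAS (limma, adjusted p = 8.7e-10) and -1.02 in MAPK3 (adjusted p = 0.0031). MTOR itself was higher in 3 knockdowns. Of the kinases of EIF4E, MKNK2 was lower in 2 knockdowns and MKNK1 higher in 2, at 0.19 in HRAS and 0.12 in MAPK3. The 28 other initiation factors passed as higher in 28 and as lower in 28 of 168 pairs, or 33.3%, against the same shares of all genes. EIF3J rose in 5 knockdowns, EIF1AX, EIF3C and EIF5B rose in 4 each, and EIF3F fell in 4, with changes between -0.23 and 0.62 over these genes. EIF3L, which the naming rule passed over for its smaller mean change, was also lower in 4. Of the 13 eIF3 subunits measured, 9 had only lower calls over all arrays, 2 (EIF3C and EIF3J) only higher calls and 2 none. EIF3C was read at a mean of 4.21, below the median of every array. A call in 1 knockdown was enough for this count, as for EIF3A, EIF3I and EIF3M, each lower in NGFR alone. Without the 6 arrays EIF3B was higher in 3 knockdowns, and EIF3A and EIF3G had calls in both directions. The share of all genes with only lower calls is not given, so nothing is read from the count.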

How the data were processed

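Biotin-labelled cRNA from total RNA of 101 samples was hybridised to Affymetrix arrays. The authors deposited log2 values made with RMA, per the submitters' processing notes, in 1 table of 54675 probe sets, in which 0 columns belonged to no sample of the series. The number of arrays limits the precision. Of the probe sets, 41097 named 1 gene, 1801 several and 11777 none, and 19775 genes were read through the probe set of highest mean level. Group means with label series as a term within each line were fitted with limma 3.58.1 in R 4.3.3 (empirical Bayes with a trend, robust), and two-sided p-values were adjusted by Benjamini-Hochberg over all genes at 0.05. Figures were drawn with matplotlib 3.10.9. The fit was tested on simulated data. Members and lists were chosen with earlier results of these data known.

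The text names every member, up to 5 genes of each list that passed in the same direction in 4 or more knockdowns, ranked by mean absolute change, and the 10 genes most like and 5 most opposed to EIF4E2 over 18 fitted group levels. GIGYF1, GIGYF2, DDX6, TNRC6B, ZFP36, EPAS1, PAIP2, MTOR, MKNK1, MKNK2, ARIH1, TNRC6A, EDF1 and EIF3L fall outside that rule and were named after their values were seen. The same holds for EIF4ENIF1, TNRC6C, RBM4, EIF3A, EIF3B, EIF3G, EIF3I and EIF3M. Deviations of same-numbered knockdown and empty vector arrays from their group means correlated at 0.295 to 0.914 in 71 of 71 pairs, and label series is a term of the model. Within replicates 3 to 6, the correlations were -0.228 to 0.202, with 6 of 48 over 0.1. Alternatives changed the block, the samples, the control, the probe sets, the filter, the normalisation and the arrays.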

Additional observations from a re-analysis of the deposited data

Results flagged for a closer look

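In 112 groups of 5 or 6 arrays, 30 had a highest or lowest array far from the rest by Dixon's criterion, where chance gives about 1 in 20 groups, or 5.6. Most were arrays of replicates 1 and 2, whose label series is a term of the fit.

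For EIF4E2 the lone low arrays were CDK5 SW620 replicate 2 at 8.38, HRAS SW480 replicate 2 at 8.31, MAP2K1 SW620 replicate 1 at 8.47 and MAP2K2 SW480 replicate 2 at 7.88. For EIF4E they were CDK5 SW620 replicate 2 at 9.04, MAP2K1 SW620 replicate 1 at 8.82, NGFR SW620 replicate 1 at 6.03, the non-target arrays of replicate 2 at 8.91 in SW480 and 8.58 in SW620, and the empty vector array of replicate 2 in SW480 at 8.86. For EIF4E3 it was the empty vector array of replicate 2 in SW480, at 5.32.

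EIF4EBP1 had high lone arrays in replicate 1 of SW480, at 9.78 for CDK5, 10.28 for MAP2K1, 9.93 for MAPK3 and 9.75 for the empty vector. Its low ones were CDK5 SW620 replicate 2 at 9.51, MAP2K1 SW620 replicate 2 at 8.44, MAPK3 SW620 replicate 2 at 5.70, NGFR SW480 replicate 2 at 8.66, HRAS SW480 replicate 4 at 9.27, the non-target array of SW620 replicate 2 at 9.76 and the empty vector array of SW620 replicate 2 at 9.61. EIF4EBP2 was low on MAP2K2 SW620 replicate 1, at 8.67.

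EIF4G1 was high on replicate 2 of CDK5 SW620 at 10.24, MAP2K1 SW480 at 10.46, MAPK3 SW480 at 10.31 and NGFR SW620 at 10.45. It was low on replicate 2 of MAP2K1 SW620 at 6.05 and MAPK3 SW620 at 4.99, both with the wide GAPDH difference. EIF4A2 was high on MAP2K2 SW620 replicate 6, at 4.31.

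The change in SW620 minus that in SW480 differed in the interaction test for EIF4E2 with HRAS at -0.70, EIF4E3 with CDK5 at 0.76 and with HRAS at 0.63, and EIF4EBP1 with MAP2K1 at -0.97 and with MAPK3 at -1.16.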

How the results depend on the processing

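Averaged over the lines, EIF4E2 stayed above the vector controls in all 6 knockdowns under every alternative run. Replicates 3 to 6 alone gave 0.66 for CDK5, 0.80 for HRAS, 0.54 for MAP2K1, 0.43 for MAP2K2 and 0.40 for NGFR, and replicates 1 and 2 alone gave 1.31, 1.67, 1.55, 1.54, 1.69 and 1.57 for CDK5, HRAS, MAP2K1, MAP2K2, MAPK3 and NGFR. The mean of all EIF4E2 probe sets gave 0.54, 0.64, 0.46, 0.48, 0.31 and 0.33 in that order. With the empty vector alone CDK5, HRAS and MAP2K2 were at 0.62, 0.81 and 0.52, and with the non-target hairpin alone at 1.17, 1.36 and 1.07. The next brightest probe set gave 0.78 for CDK5 and 0.90 for HRAS, arrays averaged in pairs gave 1.01 for CDK5, and a fit of only the groups compared gave 0.82 for CDK5. A target not named for an alternative moved by less than the residual SD of its own knockdown arrays. For MAPK3 those include an array with the wide GAPDH difference. In replicates 3 to 6 MAPK3 averaged 9.61 in SW480 and 9.56 in SW620. The empty vector was at 9.14 and 9.26 there, and the non-target hairpin at 8.51 and 9.04. Leaving out 1 replicate number at a time gave 0.78 to 0.95 for CDK5, 0.91 to 1.16 for HRAS, 0.70 to 0.96 for MAP2K1, 0.60 to 0.88 for MAP2K2, 0.77 to 1.04 for MAPK3 and 0.55 to 0.87 for NGFR. Alternatives without the 6 arrays or part of them, with replicates 1 and 2 only and with the next brightest probe set were chosen after seeing the data.

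The EIF4E2 difference of the non-target hairpin from the empty vector passed in a fit of only the groups compared (-0.55), for the mean of all probe sets (-0.33), in replicates 3 to 6 (-0.42), for the next brightest probe set (-0.50), and without the 3 arrays of wide GAPDH difference or all 6 (-0.55 each). It lay between -0.58 and -0.48 with 1 replicate number left out, and passed without replicate 1 or 2. With a replicate block replacing the label series it was -0.55 (limma, adjusted p = 0.148), and that block changed the call of 1 of 222 results, the EIF4EBP1 line difference for MAP2K1. The SW620 minus SW480 difference passed in a fit of only the groups compared, with no genes under the percentile 40, and without the 3 or all 6 arrays (0.32 each), in replicates 3 to 6 (0.32), for the mean of probe sets (0.17) and for the next brightest (0.24), and lay between 0.28 and 0.37 with 1 replicate number left out. Vector controls differed from non-transduced cells by -0.51 in a fit of only those groups, and by -0.30 to 0.47 with 1 replicate number left out. No value against non-transduced cells exists for replicates 3 to 6 alone.

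Directions reversed in replicates 3 to 6 alone for EIF4E2 in CDK5 against the other 5 knockdowns (0.11) and in the MAPK3 line difference (-0.38), for EIF4E in HRAS SW480 (-0.23), NGFR SW620 (0.32) and the NGFR line difference (0.47), for EIF4EBP2 in the MAPK3 line difference (-0.22), and for EIF4G1 in MAP2K1 averaged (0.48), in SW620 (0.79), between lines (0.61) and against the other 5 (0.17), and in MAPK3 averaged (0.35), in SW620 (0.68) and between lines (0.65). Without the 3 arrays of wide GAPDH difference, EIF4E in NGFR was at 0.39 in SW620 and 0.46 between lines, and EIF4G1 at 0.32 averaged, 0.62 in SW620 and 0.60 between lines for MAP2K1, and 0.47 in SW620 and 0.59 between lines for MAPK3. Without all 6, EIF4E in NGFR was at 0.39 and 0.46, and EIF4G1 at 0.42 averaged and 0.62 in SW620 for MAP2K1 and 0.28 averaged and 0.47 in SW620 for MAPK3. In replicates 1 and 2 alone, EIF4E3 in NGFR SW480 was at -0.060 and EIF4EBP2 in NGFR against the other 5 at 0.14, and by the mean of probe sets EIF4E2 in MAPK3 against the other 5 was at -0.18. With 1 replicate number left out, EIF4E in NGFR lay between -0.35 and 0.39 in SW620 and -0.24 and 0.44 between lines, and EIF4G1 between -0.13 and 0.28 averaged, -0.24 and 0.62 in SW620 and -0.28 and 0.68 between lines for MAP2K1, and -0.58 and 0.47 in SW620 and -0.44 and 0.66 between lines for MAPK3. The cause was not tested.

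Calls among the other 6 members, line differences and calls against the other 5 were 8, 5 and 6. They were 2, 0 and 0 with no term for label series, 3, 0 and 2 when paired arrays were averaged, 19, 28 and 23 in replicates 3 to 6, 0, 0 and 0 in replicates 1 and 2, 14, 16 and 14 without the 3 arrays and 16, 17 and 14 without all 6. A fit of only the groups compared gave 15 calls and 16 line differences, the empty vector alone 3 and the non-target hairpin alone 2 line differences, and the mean of probe sets 11 calls against the other 5. Where limma made 0 calls, 8, 3 and 5 had an unadjusted p under 0.05 in replicates 1 and 2, 3 line differences and 7 against the other 5 with no series term, and 7 line differences with averaged pairs. With 1 replicate number left out they were 7 to 14, 2 to 14 and 3 to 13. The lists of eIF4F helpers, EIF4E2 partners, kinases and other factors had 21, 26, 22 and 56 calls, against 10, 3, 11 and 17 with no term for label series, 11, 9, 11 and 26 when paired arrays were averaged, 34, 58, 55 and 123 in replicates 3 to 6, and 0, 2, 0 and 0 in replicates 1 and 2, where helpers, kinases and other factors had 7, 10 and 23 at an unadjusted p under 0.05. Without all 6 arrays helpers, partners and other factors had 33, 43 and 88, and in a fit of only the groups compared partners and other factors had 43 and 93. With 1 replicate number left out the 4 lists had 16 to 33, 16 to 40, 19 to 30 and 42 to 85.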
